A study of Mus musculus with 24 samples.

Results

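The genes described here build and feed MHC class I, the cell-surface complex that shows peptides from inside a cell to CD8 T cells. They are 10 probes, chosen by name from the 770 genes of the table: the heavy chains H2-K1, H2-D1, H2-M3, H2-Q2, H2-Q10 and H2-T23, the peptide transporter subunits Tap1 and Tap2, the loading chaperone Tapbp, and the transcriptional coactivator Nlrc5. All 10 passed the filter on low values and were tested.

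RNA came from mammary tumours of female FVB-Neu-N mice aged 7 to 8 weeks, a strain that carries the rat neu oncogene and tolerates its product. Each mouse received 50000 NT2.5 cells, a line derived from 1 spontaneous mammary tumour, in the mammary fat pad. Treatment started 3 days later and ran for 3 weeks. Vehicle tumours (4 samples) came from mice given methylcellulose by mouth and isotype antibodies. All other mice received entinostat (ENT), which inhibits histone deacetylases of class I, by mouth at 5 mg/kg daily: alone (ENT, 4 samples), with anti-PD-1 (ENT+PD1, 4), with anti-CTLA-4 (ENT+CTLA4, 4), with both antibodies (ENT+PD1+CTLA4, 4), or with anti-CTLA-4 and anti-HER2 (ENT+CTLA4+HER2, 2). Each antibody was dosed at 100 µg per mouse, the checkpoint antibodies 2 times and anti-HER2 1 time a week. A further pair of samples repeats the titles of ENT+PD1 replicates 1 and 2. It ran on the other cartridge from those replicates, and the labels do not say whether it is the same RNA. It entered no main test. The labels give whole tumours as the source, whereas the extraction protocol ends with the isolation of immune cells. They do not say that samples of a group came from separate mice, so p-values measure the spread between these samples, which may be technical.

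Counts of RNA molecules were read on 2 nCounter cartridges of 12 samples, with recovered totals between 226863 and 483418 per sample. Vehicle, ENT and ENT+PD1 ran on the first cartridge and every anti-CTLA-4 arm on the second, so in the main fit treatment and cartridge cannot be told apart between those sides. The repeat-titled pair, on the second cartridge, is the 1 link between them, and a cartridge term can be fitted only by counting it as ENT+PD1. The means of the 8 negative control probes, which match no transcript, averaged 9.36 in vehicle, 7.48 under ENT, 10.2 under ENT+PD1, 4.69 under ENT+CTLA4, 5.14 under ENT+PD1+CTLA4 and 7.24 under ENT+CTLA4+HER2 on the scale of the gene values. The epithelial marker Epcam read 3778 to 6927 in the 24 samples, above its sample's negative controls by more than 2 SD in all of them, and the T cell marker Cd3d did so in 23. The other T cell markers used below exceeded the controls by 2 SD in 2 (Cd2) to 18 (Cd3e) samples.

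MHC class I heavy chains fold in the endoplasmic reticulum with beta-2 microglobulin. Peptides cut by the proteasome, or by the immunoproteasome that interferon gamma induces, are pumped in by the transporter TAP, a dimer of the Tap1 and Tap2 products, and tapasin (Tapbp) holds an empty heavy chain at that transporter until a peptide binds. H2-K1 and H2-D1 are the classical chains, while H2-M3, H2-Q2, H2-Q10 and H2-T23 belong to the less polymorphic class Ib. NLRC5 enters the nucleus after interferon stimulation and acts on the promoters of class I genes through a conserved module of X and Y boxes. Beta-2 microglobulin was not analysed here.

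Promoters of these genes are described first, and any link between their letters and the values below was not tested. The RefSeq table holds a window from 250 bases before to 50 bases after the gene start for 8 of the 10 genes, in build GRCm38.p6. All 8 windows lie on chromosome 17. The 4 windows below belong to both classical chains, to H2-M3 and to H2-Q10. Capitals mark matches, on either strand, to 4 motifs: the interferon response element core GAAGTGAAA, the NF-kB core GGGATTCC, the X2-like site TGACGC and the Y-like box CCAAT. A match on the reverse strand appears as the reverse complement, so the interferon core reads TTTCACTTC in all of them.
H2-K1, chr17:34000298-34000597, minus strand: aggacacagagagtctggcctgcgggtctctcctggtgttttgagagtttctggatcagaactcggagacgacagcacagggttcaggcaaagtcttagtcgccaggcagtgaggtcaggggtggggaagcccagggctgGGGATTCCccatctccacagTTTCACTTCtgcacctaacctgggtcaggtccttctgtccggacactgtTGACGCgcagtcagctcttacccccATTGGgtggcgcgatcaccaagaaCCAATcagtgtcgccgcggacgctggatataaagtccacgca
H2-D1, chr17:35262844-35263143, plus strand: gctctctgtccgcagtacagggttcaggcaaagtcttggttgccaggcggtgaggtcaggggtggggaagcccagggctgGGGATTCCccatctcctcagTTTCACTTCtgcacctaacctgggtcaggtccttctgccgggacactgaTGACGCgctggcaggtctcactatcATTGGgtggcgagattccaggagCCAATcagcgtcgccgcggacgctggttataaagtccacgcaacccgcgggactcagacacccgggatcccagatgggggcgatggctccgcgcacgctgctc
H2-M3, chr17:37269984-37270283, plus strand: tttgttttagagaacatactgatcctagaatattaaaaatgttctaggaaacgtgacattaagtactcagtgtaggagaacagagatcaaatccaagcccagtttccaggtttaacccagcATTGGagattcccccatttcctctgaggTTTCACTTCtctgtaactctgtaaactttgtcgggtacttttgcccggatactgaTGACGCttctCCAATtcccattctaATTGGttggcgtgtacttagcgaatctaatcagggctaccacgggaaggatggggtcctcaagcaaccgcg
H2-Q10, chr17:35469839-35470138, plus strand: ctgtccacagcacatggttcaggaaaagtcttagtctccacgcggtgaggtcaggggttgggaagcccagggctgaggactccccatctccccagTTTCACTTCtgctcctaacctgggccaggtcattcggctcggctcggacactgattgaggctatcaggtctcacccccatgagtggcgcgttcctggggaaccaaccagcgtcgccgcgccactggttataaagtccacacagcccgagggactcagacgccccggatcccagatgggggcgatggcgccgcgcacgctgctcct

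H2-K1 and H2-D1 held all 4 motifs, in the same order along the strand. The interferon core began at position −90 in H2-K1 and −150 in H2-D1, and the X2-like site at −41 and −101, counted from the annotated starts. H2-K1 has a second annotated start, whose window overlaps the one shown and holds the same matches. H2-M3 held the interferon core at −101, the X2-like site at −46 and 3 Y-like boxes, without the NF-kB core. H2-Q10 held only the interferon core, at −155. The windows of H2-Q2, H2-T23, Tap1 and Tapbp held only Y-like boxes, 1 each and 2 in Tapbp. Of 32544 different windows of this length, 0.507% held the interferon core, 1.07% the NF-kB core, 7.44% the X2-like site and 37.4% the Y-like box. All 4 occurred together in 3 windows (0.00922%), those of H2-D1 and the 2 overlapping starts of H2-K1. The motif letters were set by hand, and their independence of class I promoters was not established. These shares are therefore not a test of rarity. The Tap1 window shares 275 bases with that of Psmb9, an immunoproteasome subunit read from the opposite strand. These letters are those of the reference strain C57BL/6J, and FVB mice carry another H2 haplotype. A match is a description of the letters, and its absence says nothing about the factor.

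**Figure D1:**
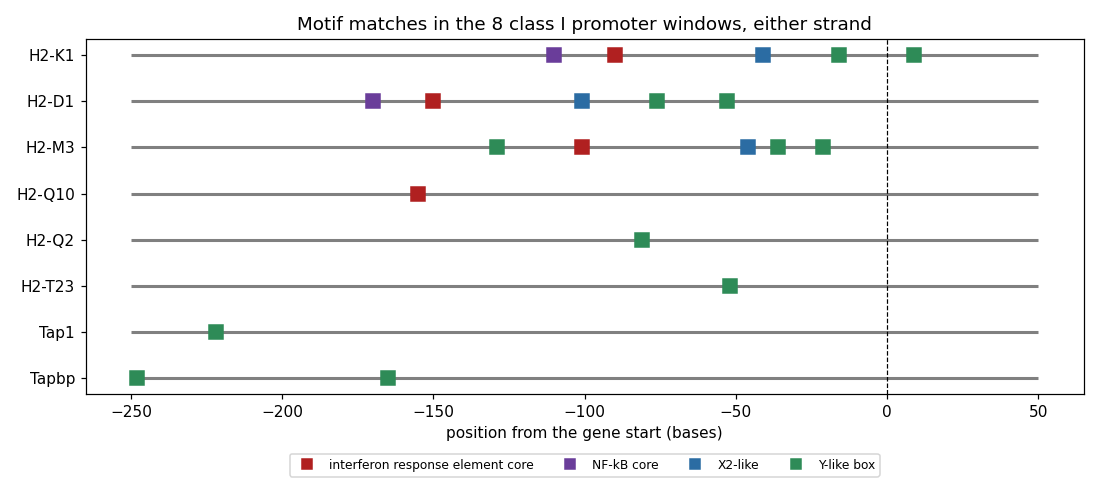
Positions of the motif matches in the 8 available promoter windows, in bases from the annotated gene start (x axis), 1 line per gene; coloured squares mark the first base of a match on either strand. H2-K1 and H2-D1 carry all 4 kinds, H2-M3 carries 3, and the other 5 genes carry 1 kind each.

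Values below are normalized counts on a linear scale, given per sample in order of replicate number or as mean ± SD, in which every sample has the same housekeeping level. A probe's capture is its own, so levels are compared between arms and never between genes. Log2 changes are on the log2(value + 1) scale with the standard error of a limma fit over 22 samples, and an adjusted p under 0.05 was needed for a call. In bulk tumour RNA, fewer cells of a type and less RNA per cell cannot be told apart.

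Of the classical chains, H2-K1 read 1067, 970.2, 1601 and 1005 in the vehicle tumours, 1077, 1076, 1145 and 1079 under ENT, 1165, 1240.2, 1507 and 1916 under ENT+PD1, 1193, 1040.5, 1109.5 and 1314 under ENT+CTLA4, 1747, 1128, 1264 and 1278 under ENT+PD1+CTLA4 and 1477 and 2115 under ENT+CTLA4+HER2. The repeat-titled pair read 1187 and 1159. The ENT tumours lay close together, and the spread of vehicle, ENT+PD1 and ENT+PD1+CTLA4 came mostly from 1 or 2 high tumours in each. In rising order the arm means were 1094 ± 33.8 under ENT, 1161 ± 296 in vehicle, 1164 ± 118 under ENT+CTLA4, 1354 ± 270.4 under ENT+PD1+CTLA4, 1457 ± 339 under ENT+PD1 and 1796 ± 451 under ENT+CTLA4+HER2. No neighbours in that order differed by more than the larger of their SDs.

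H2-D1, the second classical chain, read 3607, 3426, 4265 and 4121 in vehicle, 3305, 3219, 3697 and 3295 under ENT and 3631, 3426, 5469 and 7281 under ENT+PD1. On the other cartridge it read 3705, 3542, 3228 and 4074 under ENT+CTLA4, 6092, 3002, 4149 and 3459.6 under ENT+PD1+CTLA4 and 4426 and 5545 under ENT+CTLA4+HER2. The 4 highest values were those of ENT+PD1 replicates 5 and 6, ENT+PD1+CTLA4 replicate 1 and ENT+CTLA4+HER2 replicate 2, and both ENT+CTLA4+HER2 tumours lay above every tumour of vehicle, ENT and ENT+CTLA4, while the other arms overlapped. Means ran from 3379 ± 216 under ENT to 4986 ± 791 under ENT+CTLA4+HER2.

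Among the class Ib chains, H2-M3, which presents formylated peptides, ranged from 24.7 to 75.8. Its highest tumours were ENT+PD1 replicate 6 at 75.8 and ENT+PD1+CTLA4 replicate 1 at 67.0, and its lowest was ENT+PD1+CTLA4 replicate 2 at 24.7, so that 1 arm held both the lowest and the next to highest value. H2-T23, which encodes the heavy chain of Qa-1, the ligand of the NK receptor pair CD94-NKG2A, ranged from 84.5 to 190.7. Its means were 158 ± 23.6 in vehicle, 128 ± 25.01 under ENT and 158 ± 22.6 under ENT+PD1, against 110.2 ± 23.5 under ENT+CTLA4, 116 ± 29.2 under ENT+PD1+CTLA4 and 152 ± 15.3 under ENT+CTLA4+HER2. The ranges of all these arms overlapped except those of ENT+CTLA4 and ENT+CTLA4+HER2.

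H2-Q10, known as a secreted class Ib chain made chiefly by the liver, read 36.0, 67.1, 23.5 and 30.8 in vehicle, 26.2, 10.8, 16.1 and 23.9 under ENT and 39.1, 19.6, 43.3 and 27.0 under ENT+PD1. It read 19.5, 8.33, 19.2 and 12.4 under ENT+CTLA4, 19.5, 14.1, 15.4 and 11.9 under ENT+PD1+CTLA4 and 39.1 and 25.8 under ENT+CTLA4+HER2. Every tumour of ENT+CTLA4 and of ENT+PD1+CTLA4 lay below every vehicle tumour. The values exceeded the negative controls by 2 SD in 21 of 24 samples. H2-Q2, a class Ib gene of the same Q region, read 19.4, 28.5, 13.4 and 27.4 in vehicle, 15.4, 8.33, 10.0 and 4.66 under ENT+CTLA4 and 17.0 and 27.1 under ENT+CTLA4+HER2, and from 12.2 to 31.0 in the other samples. In ENT+CTLA4 only replicate 1 exceeded the negative controls by 2 SD, so the size of any difference from that arm is not measured. Heavy chain genes are near-identical in places, and the probes were designed on reference transcripts, so reads of 1 chain may include another.

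Of the peptide loading genes, Tap1 ranged from 62.7 to 180.6, with means of 102 ± 22.98 in vehicle, 83.7 ± 11.4 under ENT, 111 ± 40.0 under ENT+PD1, 98.3 ± 12.0 under ENT+CTLA4, 109.8 ± 50.2 under ENT+PD1+CTLA4 and 159.5 ± 11.7 under ENT+CTLA4+HER2. Both ends of the range were tumours given both antibodies, replicates 6 and 1. Tap2, the other subunit of the transporter, read 87.2, 117, 119 and 119 in vehicle and 76.8, 84.4, 72.6 and 89.5 under ENT, which overlap through vehicle replicate 1 alone. It read 161 and 102 under ENT+CTLA4+HER2, the highest arm mean at 132 ± 42.0. Tapbp stayed between 278.3 and 353.4 in the 24 samples, a ratio of 1.27 from highest to lowest. Its SD within arms was 0.11 on the log2 scale, smaller than that of all but 2.26% of the 619 genes tested, against a median of 0.40 over those genes and 0.35 over the 10 class I genes.

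Nlrc5, the coactivator, had the widest spread of the 10 genes, with an SD within arms of 0.98 on the log2 scale and a ratio of 12.9 from highest to lowest sample. It read 6.92, 5.71, 16.8 and 13.7 in vehicle, 4.86, 5.42, 14.1 and 6.82 under ENT, 10.3, 10.6, 24.6 and 40.5 under ENT+PD1, 12.3, 4.17, 6.39 and 24.1 under ENT+CTLA4, 45.4, 3.53, 8.93 and 8.65 under ENT+PD1+CTLA4 and 11.9 and 41.3 under ENT+CTLA4+HER2. It exceeded the negative controls by 2 SD in 8 of 24 samples, and in 0 of 4 ENT tumours. The 5 tumours above 20 were ENT+PD1 replicates 5 and 6, ENT+CTLA4 replicate 6, ENT+PD1+CTLA4 replicate 1 and ENT+CTLA4+HER2 replicate 2. The counts behind these values ran from 4 (95% exact Poisson interval 1.09 to 10.2) to 42 (30.3 to 56.8), while those of H2-D1 ran from 2401 to 7016. Such intervals cover counting error only.

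**Figure D2:**
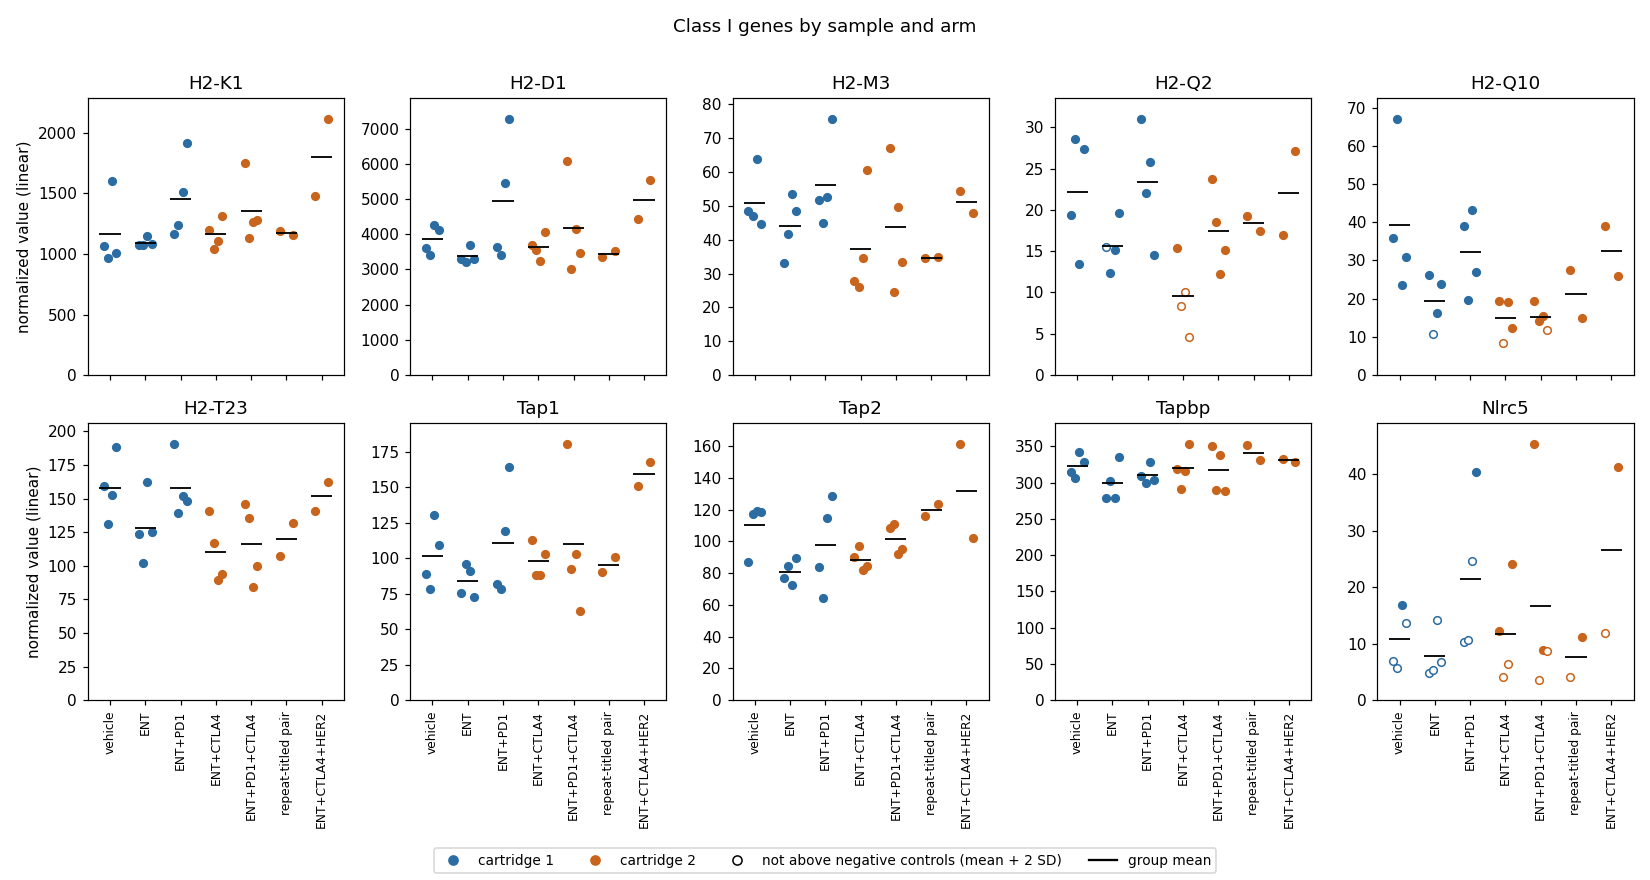
Normalized value of each of the 10 class I genes (y axis, linear, from 0) in each of the 24 samples, by arm (x axis); blue and orange are the cartridges, open circles lie within 2 SD of the negative controls, and bars are arm means. Tapbp hardly varies, H2-Q10 is lower under ENT+CTLA4 and ENT+PD1+CTLA4 than in every vehicle tumour, and Nlrc5 is open in 16 of 24 samples.

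Entinostat alone was compared with vehicle on a shared cartridge to ask what the deacetylase inhibitor does by itself. All 10 genes had lower means on the log2 scale under ENT, with a median change of −0.28, while the median of all 619 genes tested was −0.11 and 74.0% of those genes were lower. Limma called 0 of the 10, and 0% of all genes. H2-Q10 differed by −0.96 ± 0.36 (95% interval −1.70 to −0.21) and Tap2 by −0.44 ± 0.19 (−0.83 to −0.05). These were the 2 of 10 at an unadjusted p under 0.05, against 4.68% of all genes. Both had an adjusted p = 0.999. H2-K1 differed by −0.05 ± 0.18 (−0.43 to 0.32) and H2-D1 by −0.19 ± 0.21 (−0.63 to 0.26), so a change of 1 log2 unit in either classical chain lies outside these intervals. Centring each sample on its median gene turned H2-K1 and Tapbp higher and left 8 of 10 lower, with a median of −0.13.

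Anti-PD-1 added to entinostat was read against ENT, again within the first cartridge. All 10 genes had higher means under ENT+PD1, with a median of 0.36, but the median of all genes was 0.34 as well and 81.3% of them were higher. With samples centred on their median gene, 5 of the 10 were higher and 5 lower. Limma called 0 of the 10, and 0.323% of all genes. H2-K1 differed by 0.39 ± 0.18 (adjusted p = 0.249) and was the 1 gene of the 10 whose groups did not overlap, as was the case for 7.11% of all genes. H2-D1 differed by 0.48 ± 0.21 (adjusted p = 0.249). Nlrc5 read 21.5 ± 14.3 against 7.80 ± 4.29 (adjusted p = 0.276), and with 0 of 4 ENT tumours and 1 of 4 ENT+PD1 tumours above the controls by 2 SD the size of its difference is not measured. Without ENT+PD1 replicate 6 the H2-K1 difference was 0.25, and with samples centred it was 0.02. Replicates 5 and 6, the highest ENT+PD1 tumours, had summed T cell markers (8 genes) of 477.5 and 599, against 143.6 and 80.0 in replicates 1 and 2, and summed macrophage and monocyte markers (12 genes) of 10968 and 13928 against 4581 and 5222, and the part of these cells in the difference was not tested. ENT+PD1 against vehicle gave 6 genes higher and 4 lower with a median of 0.08 (0.18 over all genes), 0 of 10 called and 0% of all genes. With samples centred, 3 were higher and 7 lower.

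The arm given entinostat and anti-CTLA-4 was set against vehicle, across the cartridges, so the comparison holds both agents. H2-Q10 differed by −1.31 ± 0.36 (−2.06 to −0.57) and did not pass (adjusted p = 0.0706). H2-Q2 read 9.61 ± 4.46 against 22.2 ± 7.11 in vehicle and did not pass either (adjusted p = 0.0901). H2-T23 differed by −0.53 ± 0.19 (adjusted p = 0.16), while H2-K1 differed by 0.03 ± 0.18 (−0.34 to 0.40) and H2-D1 by −0.08 ± 0.21 (−0.53 to 0.37). Over all alternatives the H2-T23 change ran from −0.65 to −0.14. Limma called 0 of the 10 and 1.45% of all genes. H2-Q10 was the 1 gene of 10 whose groups did not overlap, against 12.8% of all genes. H2-Q10 passed in DESeq2 (adjusted p = 0.0388), without vehicle replicate 3 (0.0269) and without ENT+PD1 replicate 2 (0.0494), and H2-Q2 passed without vehicle replicate 3 (0.0269) and without ENT+CTLA4 replicate 1 (0.0395). With the negative controls subtracted, a setting added after these were seen, the change of H2-Q10 was −1.49 (adjusted p = 0.229). With the cartridge term it was −0.73 (adjusted p = 0.502), and over all alternatives its adjusted p ran from 0.0269 to 0.502 and that of H2-Q2 from 0.0269 to 0.521. The repeat-titled ENT+PD1 pair on the second cartridge read 21.2 ± 8.82 for H2-Q10, 18.4 ± 1.32 for H2-Q2 and 119.8 ± 17.2 for H2-T23. ENT+PD1 on the first cartridge read 32.2 ± 10.9, 23.3 ± 6.93 and 158 ± 22.6.

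In the arm with both antibodies against vehicle, H2-Q10 differed by −1.23 ± 0.36 (adjusted p = 0.0808), with groups that did not overlap, and H2-T23 by −0.46 ± 0.19 (adjusted p = 0.272). The H2-T23 change ran from −0.58 to −0.07 over the alternatives. Limma called 0 of the 10 and 2.1% of all genes, and 1 of 10 did not overlap against 8.56% of all genes. H2-Q10 passed without vehicle replicate 3 (adjusted p = 0.0444), whereas with the cartridge term its change was −0.65 (adjusted p = 0.512), the highest p of the alternatives. The comparison shares its vehicle samples with the previous one. Against ENT, ENT+CTLA4 had 6 of 10 genes higher (median 0.09) and ENT+PD1+CTLA4 had 7 of 10 (median 0.19), with 0 called in either, as for 0% of all genes in both. With samples centred these became 2 and 5 of 10. Against ENT, H2-Q10 differed by −0.35 under ENT+CTLA4 and −0.27 under ENT+PD1+CTLA4, and H2-T23 by −0.22 and −0.15. Against ENT+PD1, ENT+PD1+CTLA4 had 8 of 10 lower with a median of −0.31 (−0.25 over all genes), or 6 of 10 with samples centred. There 0 of the 10 and 3.23% of all genes were called, and H2-Q10 came nearest, at −0.99 ± 0.36 (adjusted p = 0.119). Over the alternatives its change ran from −1.20 without ENT+PD1 replicate 2 (adjusted p = 0.0434) to −0.36 with quantile normalization, and its adjusted p up to 0.813.

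Within the second cartridge, adding anti-PD-1 to the entinostat and anti-CTLA-4 pair gave 0 called genes of 10, and 0% of all genes. Of the 10 genes, 9 were higher, with a median of 0.16. The median of all genes was −0.01, and 46.8% of them were higher. H2-K1 differed by 0.20 ± 0.18 (−0.17 to 0.58), H2-D1 by 0.15 ± 0.21 and Tap1 by 0.06 ± 0.27. H2-Q2 read 17.4 ± 4.98 against 9.61 ± 4.46, with 3 of the 4 ENT+CTLA4 tumours within 2 SD of their negative controls. The F test across the 5 arms without anti-HER2 called 0 of the 10 and 3.23% of all genes, with H2-Q10 lowest at an adjusted p = 0.0733 (0.0421 in DESeq2, 0.0413 without vehicle replicate 3 and 0.0306 without ENT+PD1 replicate 2, and past the threshold in no other alternative run, the cartridge term included).

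The arm with anti-HER2 had the highest mean of the 6 arms for H2-K1, H2-D1, Tap1, Tap2, Tapbp and Nlrc5. Its replicate 1 had the lowest recovered total of the 24 samples, 226863, and the largest scaling factor, 1.70. The factor of replicate 2 was 1.29, against 0.78 to 1.04 under ENT+CTLA4. Against ENT+CTLA4, all 10 genes were higher under ENT+CTLA4+HER2, with a median of 0.57, while the median of all genes was 0.17 and 67.7% of them were higher. With samples centred on their median gene, 9 of 10 were higher, Tapbp being the exception, and the medians were 0.45 and 0.05. H2-K1 was higher by 0.61 ± 0.22 (0.15 to 1.06), H2-Q10 by 1.12 ± 0.44, Tap1 by 0.70 ± 0.33 and Tap2 by 0.53 ± 0.23. None passed: limma called 0 of the 10 and 2.26% of all genes, with adjusted p = 0.127 for H2-K1, 0.11 for H2-Q2, whose size is not measured against that arm, and 0.249 for Tap1. The 2 groups did not overlap at 7 of 10 genes, against 28.9% of all genes. With 2 anti-HER2 tumours, leaving out replicate 2 took the H2-K1 change to 0.35 and leaving out replicate 1 took it to 0.87. Against ENT+PD1+CTLA4 all 10 were higher too (median 0.37, 0.18 over all genes), with 0 called and 3.07% of all genes called, and 9 of 10 were higher with samples centred. The anti-HER2 tumours had summed neutrophil markers (6 genes) of 13611 and 2345, against 1256 to 2194 under ENT+CTLA4, and their part in the result was not tested.

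**Figure D3:**
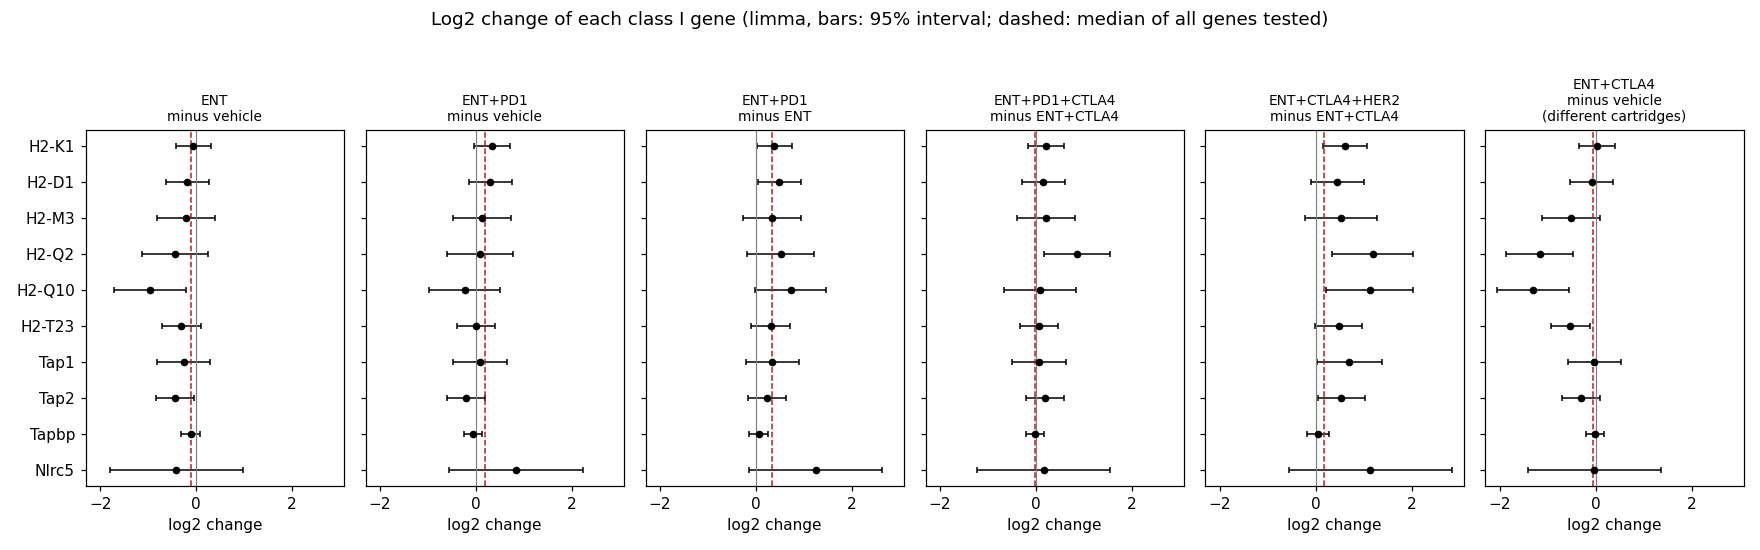
Log2 change of each class I gene with its 95% interval (x axis, limma on log2(value + 1)) in 6 comparisons, the first 5 within a cartridge; the dashed line is the median of all 619 genes tested. All 10 genes lie below 0 under ENT against vehicle and above 0 under ENT+PD1 against ENT and under ENT+CTLA4+HER2 against ENT+CTLA4, and none passed the threshold; the sizes drawn for Nlrc5, and for H2-Q2 against ENT+CTLA4, involve samples within 2 SD of the negative controls.

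Several of the genes rose and fell together from tumour to tumour. Over the 22 tumours of named arms, Nlrc5 correlated with H2-D1 (Pearson r = 0.90), H2-K1 (0.85), Tap1 (0.78) and H2-M3 (0.72), with Spearman rho of 0.88, 0.77, 0.73 and 0.74. The permutation p of r was 1e-05 for H2-D1 and H2-K1, the smallest that 100000 permutations can give, 4e-05 for Tap1 and 0.00025 for H2-M3. Adjusted over the 29 relations computed, these were 9.67e-05, 9.67e-05, 0.000232 and 0.00087, and those of rho were 0.000145, 0.00029, 0.000829 and 0.000829 after permutation p of 1e-05, 4e-05, 0.00018 and 0.00019. The relations held within the first cartridge (r = 0.93, 0.86, 0.85 and 0.81 over 12 tumours) and within the second (0.91, 0.88, 0.74 and 0.79 over 10). Without the 2 tumours with Nlrc5 farthest from its median, ENT+PD1+CTLA4 replicate 1 and ENT+CTLA4+HER2 replicate 2, r was 0.86, 0.78, 0.65 and 0.74. Both sides of each relation share their sample's scaling factor, which the permutations do not take into account, and Nlrc5 lay near the negative controls in most samples. None of the 29 relations was computed for genes outside the class I set. The share of all genes that would pass is therefore not known.

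The other 5 genes gave lower correlations with Nlrc5. Tapbp gave r = 0.52 (rho 0.53; permutation p = 0.0123 and 0.0124, adjusted 0.0274 and 0.0276), at 0.23 on the first cartridge and 0.76 on the second, and 0.43 without the 2 farthest tumours. H2-T23 gave 0.34 (rho 0.52; permutation p = 0.115 and 0.0137, adjusted 0.223 and 0.0283). For Tap2, H2-Q10 and H2-Q2 r was 0.29, 0.18 and 0.14 (adjusted permutation p = 0.307, 0.58 and 0.623). Tap1 and Tap2, which form 1 transporter, correlated with each other at 0.46 after subtraction of arm means, less than Tap1 with H2-D1 at 0.86, though the difference between those values was not tested.

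**Figure D4:**
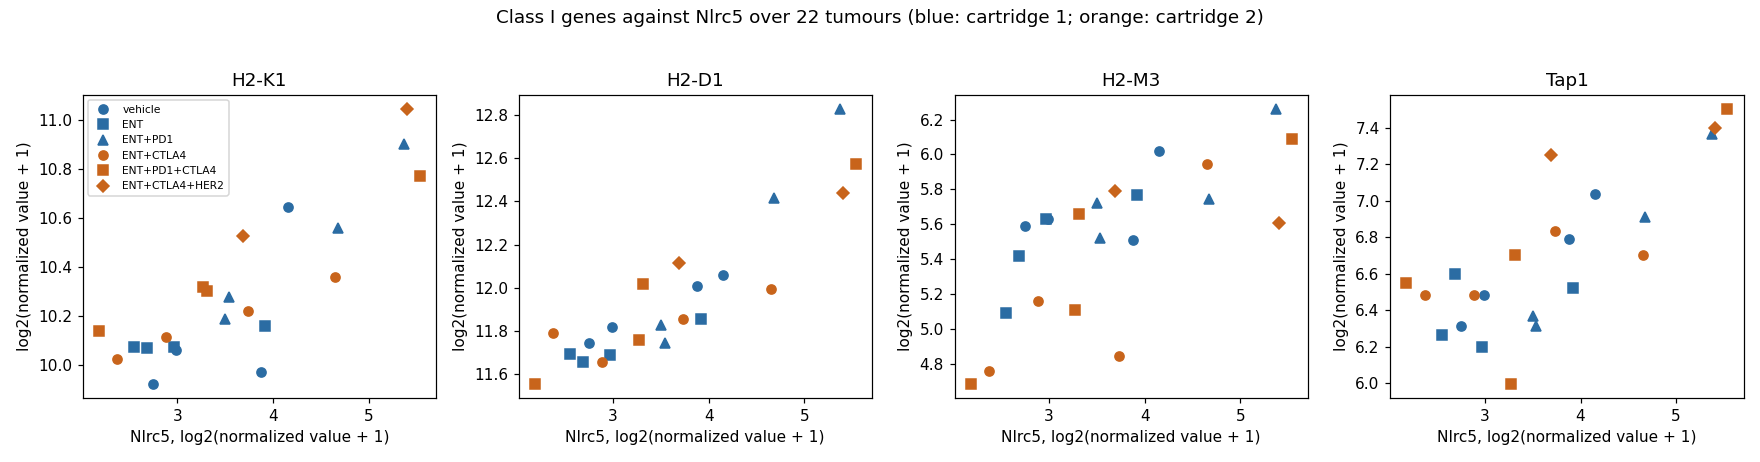
H2-K1, H2-D1, H2-M3 and Tap1 (y axes) against Nlrc5 (x axis), both as log2(normalized value + 1), 1 point per tumour over 22 tumours; blue is the first cartridge, orange the second, and shapes are arms. Points rise together on both cartridges, and the tumours with the highest Nlrc5 belong to different arms.

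The same tumours were rich in T cell transcripts, and some in those of other leukocytes. ENT+PD1+CTLA4 replicate 1 and ENT+CTLA4 replicate 6 had summed B cell markers (6 genes) of 430.4 and 292.1. Their values of Ptprc, a marker of all leukocytes, were 500.7 and 430.3. The 2 ENT+CTLA4+HER2 tumours had B cell sums of 59.5 and 65.8. Correlations with the class I genes were computed for the T cell list alone. Those of the other leukocyte lists were not computed, so no list can be singled out. The mean log2 level of 8 T cell markers correlated with Nlrc5 (r = 0.86, rho 0.80; permutation p = 1e-05 and 2e-05, adjusted 9.67e-05 and 0.000193) and with H2-D1 (r = 0.80, rho 0.74; permutation p = 8e-05 and 0.0002, adjusted 0.000331 and 0.000829). Within the cartridges r was 0.83 and 0.89 for Nlrc5 and 0.93 and 0.78 for H2-D1, and without the 2 farthest tumours 0.85 and 0.88. For H2-K1, H2-M3 and Tap1 r was 0.69, 0.66 and 0.66 (rho 0.61, 0.69 and 0.59; adjusted permutation p = 0.00251 for each r and 0.00772, 0.00188 and 0.0112 for rho). The summed T cell markers ran from 57.3 to 675.7 under ENT+CTLA4 and from 79.3 to 1240.5 under ENT+PD1+CTLA4, against 109.8 to 146.7 in vehicle and 90.3 to 172.5 under ENT. The summed epithelial and tumour markers (6 genes) were lowest for ENT+PD1 replicates 6 and 5, at 6051 and 7004, and lay between 7416 and 11041 elsewhere. The part of these cells in the class I values was not tested. Several T cell markers lay near the negative controls: Cd2, Cd6 and Cd5 exceeded them by 2 SD in 2, 5 and 9 of 24 samples.

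H2-Q2, H2-Q10 and H2-T23 correlated with another measure, the negative control probes. Over the 22 tumours r with the log2 mean of these probes was 0.79 for H2-Q10, 0.72 for H2-Q2 and 0.70 for H2-T23, with rho of 0.82, 0.67 and 0.66. The permutation p of r was 4e-05, 7e-05 and 0.00027 (adjusted 0.000232, 0.000331 and 0.00087), and that of rho 1e-05, 0.00076 and 0.00127 (adjusted 0.000145, 0.00245 and 0.00368). Within the first cartridge r was 0.84, 0.81 and 0.65, and within the second 0.64, 0.64 and 0.56. Without the 2 farthest tumours it was 0.76, 0.61 and 0.67. For the other 7 genes the adjusted permutation p of r lay between 0.274 and 0.833, though Tap2 gave r = 0.75 within the second cartridge and 0.28 within the first. The 2 sides share the sample's scaling factor here as well, and H2-T23 lay far above the controls in all 24 samples.

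**Figure D5:**
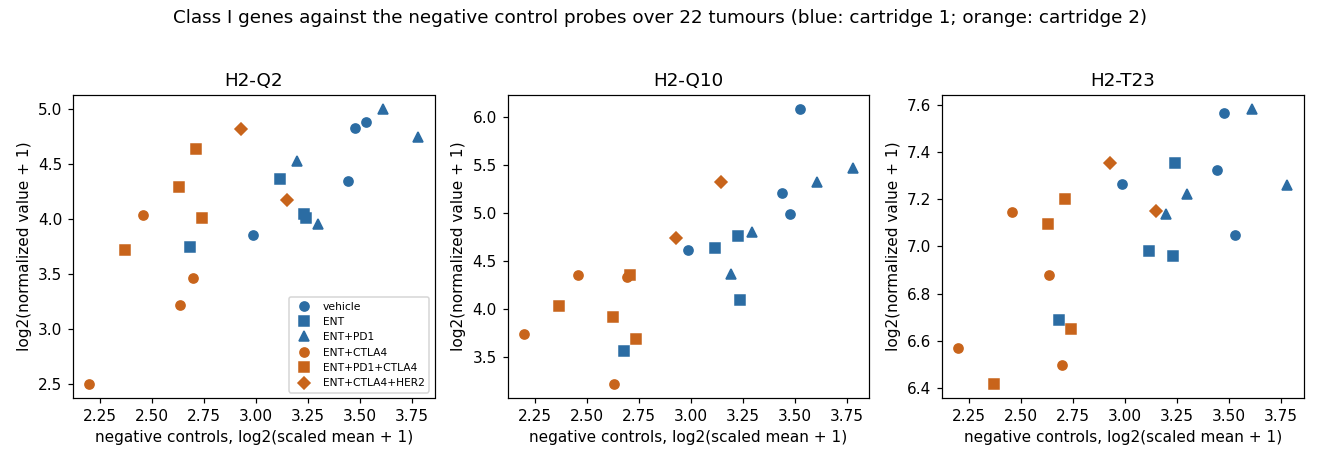
H2-Q2, H2-Q10 and H2-T23 (y axes, log2(normalized value + 1)) against the mean of the 8 negative control probes (x axis, log2(scaled mean + 1)) over 22 tumours; blue is the first cartridge, orange the second. The genes rise with the controls within both cartridges, and most tumours of the second cartridge lie at the lower left.

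The 5 other genes closest to the mean log2 level of the 10 class I genes, after subtraction of arm means over 22 tumours, were Ltb (r = 0.87), Cd22 (0.87), Il7r (0.87), Serpinb2 (0.87) and Itgal (0.87), where the median over all other genes was 0.43. Over 24 samples without that subtraction they gave 0.72, 0.55, 0.74, 0.80 and 0.79. For H2-K1 alone they were Bcl10 (0.87), Cxcr4 (0.84), Nfkbia (0.83), Jak1 (0.82) and Tgfbr2 (0.82), with a median of 0.42 over the other genes, and 0.76, 0.82, 0.70, 0.65 and 0.69 over 24 samples. These are descriptions, and the samples share depth and scaling. The genes were not scaled before the mean of the 10 was taken, so Nlrc5 weighs most in its variation. Its SD within arms was 0.98, against 0.51 for H2-Q10, the next widest, and it exceeded the negative controls by 2 SD in 8 of 24 samples.

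Of the rest of the class I pathway, 7 genes of 18 listed were on the table and tested. Psmb9, an inducible subunit of the immunoproteasome, rose from 48.8 ± 8.29 under ENT+CTLA4 to 122 ± 4.45 under ENT+CTLA4+HER2 (1.32 ± 0.31, limma adjusted p = 0.0342). That was the only call among these 7 genes over the 11 comparisons. The call was lost in 12 of 36 alternatives, among them without ENT+CTLA4 replicate 2, 5 or 6 (adjusted p = 0.112, 0.0702 and 0.0679), without ENT+CTLA4+HER2 replicate 1 or 2 (0.0722 and 0.150), without vehicle replicate 2, under median rescaling (0.0556) and under quantile normalization (0.0513), with changes of 1.14 to 1.38 in these. Psmb8, the neighbouring subunit, was 1054 ± 279 against 610.1 ± 74.5 (adjusted p = 0.0854), and Psmb10, the last of the inducible subunits, 61.4 ± 9.94 against 45.8 ± 6.70 (adjusted p = 0.39). Over the 7 genes the median change there was 0.42.

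Of the 13 tested genes between interferon gamma and class I, 0 were called in any of the 11 comparisons. Irf1, which binds interferon response elements of class I promoters, was 1000.2 ± 309 under ENT+CTLA4+HER2 against 596 ± 107 under ENT+CTLA4 (adjusted p = 0.0668), and Ifng itself 13.2 ± 0.481 against 5.66 ± 3.63, with Ifng above its sample's negative controls by 2 SD in 7 of 24 samples. Among 7 tested interferon gamma induced genes outside class I, Cxcl9 was 88.7 ± 38.9 against 13.3 ± 13.9 (adjusted p = 0.058) and Cd274, which encodes PD-L1, 129 ± 5.16 against 52.0 ± 14.3 (adjusted p = 0.173). Cxcl9 exceeded the controls by 2 SD in 11 of 24 samples, so the size of its difference is not measured. All 7 were higher there, with a median of 1.25, and 0 were called. Irgm2, an interferon-induced GTPase, was the 1 of these 7 called anywhere: it was lower under ENT+PD1+CTLA4 than under ENT+PD1 (−0.87 ± 0.24, adjusted p = 0.0488), across the cartridges. That call was lost in 26 of 35 alternatives, the cartridge term among them, and the repeat-titled ENT+PD1 pair on the second cartridge read 21.2 ± 0.113, beside 21.96 under ENT+PD1+CTLA4 and 40.7 ± 7.44 under ENT+PD1 on the first. All 8 tested MHC class II genes were higher under ENT+PD1 than under ENT, with a median of 1.201 beside 0.36 for class I, and 0 were called. Of 5 tested class I relatives and NKG2D ligands, 0 were called in any comparison.

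Among receptors that read class I or its relatives, 12 of 20 on the table were tested. Klrk1, which encodes NKG2D, was higher under ENT+PD1 than under ENT (adjusted p = 0.0399), a call lost in 27 of 34 alternatives. Cd160 was higher under ENT+CTLA4+HER2 than under ENT+CTLA4 (0.0249) and ENT+PD1+CTLA4 (0.0452), calls lost in 9 and 26 of 35 alternatives, and against the latter Klra2 was higher too (0.0218). Across the cartridges, Cd160 was lower in both ENT+CTLA4 and ENT+PD1+CTLA4 than in vehicle (limma adjusted p = 0.0118 and 0.0355), with Klra6 lower in the former (0.0127) and Klra7 in the latter (0.0355). Cd160 and Klra7 were also lower under ENT+PD1+CTLA4 than under ENT+PD1 (0.0108 and 0.0116). Each of these cross-cartridge calls was lost with the cartridge term, and the repeat-titled ENT+PD1 pair on the second cartridge read 9.78 ± 3.78 for Cd160, 8.64 ± 3.61 for Klra6 and 5.76 ± 2.41 for Klra7, beside 26.5 ± 10.1, 22.96 and 22.6 ± 10.2 for ENT+PD1 on the first. Klra probes read near-identical Ly49 genes, and Klrk1, Cd160, Klra6, Klra7 and Oas3 exceeded the negative controls by 2 SD in 13, 14, 10, 8 and 15 of 24 samples, so their changes are not sized here. Of 17 tested type I interferon genes, Ifit1 and Usp18 were lower under ENT+CTLA4 than in vehicle (0.0307 and 0.0368), Ifit1 and Oas3 under ENT+PD1+CTLA4 than in vehicle (0.0355 and 0.0355), and Ifit1, Usp18 and Oas3 under ENT+PD1+CTLA4 than under ENT+PD1 (0.0153, 0.0108 and 0.021), all across the cartridges. These calls too were lost with the cartridge term, and the repeat-titled pair read 18.8 ± 5.08 for Ifit1, 13.6 ± 5.16 for Usp18 and 8.19 ± 2.78 for Oas3, beside 39.9 ± 5.94, 39.2 ± 5.36 and 23.7 ± 11.8 for ENT+PD1 on the first cartridge and 18.4 ± 6.85, 14.6 ± 3.82 and 8.04 ± 2.97 for ENT+PD1+CTLA4. Each of the 25 list calls, F tests included, was lost under 4 to 27 of the alternatives run, and the F test calls were all lost with the cartridge term.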

How the data were processed

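Gene expression was measured on an nCounter panel, in which barcoded probes count single RNA molecules. The label protocol names a myeloid panel and the series title another one. The deposited signal values were scaled by the authors before deposit so that the geometric mean of 20 housekeeping genes is equal in all samples. That scaling was read from the values, which are whole counts times 1 factor per sample (100% whole within 0.05). The counts of negative controls were deposited unscaled and were multiplied here by the same factors. The submitters' processing notes name limma, and its role is not given in the sources used here.

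Values were tested as log2(value + 1) with limma 3.58.1 in R 4.3.3 (eBayes with trend) over 22 samples in 6 groups. The filter kept the 619 of 770 genes that reached 20 in 4 or more of these samples. P-values were adjusted by Benjamini-Hochberg over all genes kept, at a threshold of 0.05, and the fit was tested on simulated data. A count model was not the main test, because the deposited values are scaled. The pair with repeated titles did not enter that fit. Alternatives were another pseudocount (10), a floor of 20, no filter, a filter of 50, median rescaling, quantile normalization, edgeR 4.0.16 and DESeq2 1.42.0 on the recovered counts, eBayes without trend, only the groups compared, a replicate block, a cartridge term, the repeat-titled pair counted as ENT+PD1, background subtraction (added after the data were seen) and each replicate left out.

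The 10 genes and all gene lists were chosen with earlier results of these data known. All 10 are named whatever the tests gave. Of the lists, genes called in a comparison or the F test were named, at most 4 per list and comparison, and also Psmb8, Psmb9, Psmb10, Irf1, Ifng, Cxcl9 and Cd274. A further gene of that rule is not reported here. Promoter letters are from RefSeq, which paired a window with 8 of the 10 symbols.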

Additional observations from a re-analysis of the deposited data

Results flagged for a closer look

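In groups of 4 samples, a sample was marked where its gap to the nearest other value exceeded Dixon's 95% critical share of the group's range. Of 50 groups checked, 4 were marked, and chance marks about 1 in 20. H2-K1 in vehicle replicate 3 read 1601, the highest of its arm, with a gap of 0.846 of the range. H2-K1 in ENT replicate 3 read 1145, the highest of an arm whose other 3 values lay between 1076 and 1079 (0.961). Tap2 in vehicle replicate 1 read 87.2, the lowest of its arm (0.930). Nlrc5 in ENT+PD1+CTLA4 replicate 1 read 45.4, the highest of its arm (0.871), in the tumour with the highest summed T cell markers, 1240.5.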

How the results depend on the processing

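Over 14 other settings and 22 fits without 1 replicate, the number of the 10 class I genes called stayed at 0 in 8 of 12 results (11 comparisons and the F test). DESeq2 called 1 gene in ENT+CTLA4 against vehicle and 1 in the F test, H2-Q10 in both, and the cause was not tested. Without 1 replicate the number ran from 0 to 2 in ENT+CTLA4 against vehicle, and from 0 to 1 in the F test, in ENT+PD1+CTLA4 against vehicle and in ENT+PD1+CTLA4 against ENT+PD1. Those calls came without vehicle replicate 3, ENT+PD1 replicate 2 or ENT+CTLA4 replicate 1, and were of H2-Q10 and H2-Q2. Of 110 uncalled gene and comparison pairs, 61 changed sign or came to exactly 0 under at least 1 setting, and 49 did so under none. With the replicate number as a block, 0 class I genes were called in any comparison, and the Psmb9 call was lost (adjusted p = 0.0977 in limma). Same-numbered samples did not as a rule deviate together (median correlation −0.030 over 40 pairs, from −0.450 to 0.645). This check showed no general pairing by number, and it cannot exclude that some numbers mark a shared origin. In ENT+CTLA4+HER2 against ENT+CTLA4 the calls over all genes went from 14 to 0 with either quantile normalization or median rescaling. Depth limits Nlrc5, H2-Q2 and H2-Q10, whose lowest counts were 4, 6 and 8.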
